A study of Mus musculus with 28 samples.

Results

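The guanylate-binding proteins (GBPs) and the immunity-related GTPases (IRGs) are interferon-inducible GTPases, followed here in regulatory T cells (Tregs) that were sorted by surface OX40 from mouse melanomas and spleens. The members are named by symbol, a list drawn up with earlier results of these data known, and no measured value enters the rule: Gbp2, Gbp2b, Gbp3, Gbp4, Gbp5, Gbp7, Gbp9, Igtp, Irgm1 and Irgm2. Of these 10 genes, 9 have a row among the 13103 genes of the deposited table, and Gbp7 is not analysed here. All 9 passed the filter on low values that left 12548 genes for testing.

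The mice were of the Foxp3-GFP strain, in which green fluorescent protein marks cells that express Foxp3, the transcription factor that defines Tregs. They carried B16 melanoma, a transplantable mouse tumor, implanted into the skin. Cells were stained for the leukocyte marker CD45, the T cell markers CD3 and CD4, and OX40, the product of Tnfrsf4, which costimulates T cells. GFP-positive cells with high or low OX40 staining, labelled OX40plus and OX40minus, were then sorted from both organs of the tumor-bearing mice, so the spleens are not those of healthy animals. The 4 groups were tumor OX40plus and tumor OX40minus Tregs (4 mice per gate), and spleen OX40plus and spleen OX40minus Tregs (3 mice per gate). The sources used here do not give the age or sex of the mice.

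In mouse cells, interferon gamma binds its receptor and signals through JAK kinases to target genes whose promoters carry GAS elements, among them the gene of the transcription factor IRF1. A second element, the ISRE, is bound by IRF factors and also serves the response to type I interferon. GBPs are large GTPases that assemble on the vacuoles and surfaces of intracellular microbes. IRGs of the IRGM group, Igtp (also called Irgm3), Irgm1 and Irgm2, sit on the cell's own membranes and keep effector IRGs and GBPs off them. Most of this is known from infected macrophages and fibroblasts.

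Each mouse and gate was sequenced as 2 libraries by title, 28 in all. Between the 2 libraries the median chi-square per gene was 0.496 to 0.573 in the 14 cases, near the 0.455 of pure sampling noise, and between different mice of a group it was 1.38 to 13.0. Log2 CPM was averaged over the 2 libraries, which leaves 14 samples of 22.4 to 29.6 M estimated counts each. The titles number the mice, and p-values measure the spread between these mice. Levels are given in CPM, estimated counts scaled to a common library size, with the SD between mice, and 3 counts correspond to 0.104 to 0.130 CPM. The lowest member value, Gbp2b in tumor OX40plus mouse 4, rested on 71.5 estimated counts. Log2 fold changes and Benjamini-Hochberg adjusted p-values, taken over all 12548 genes, are from a single limma fit to the 14 samples, and a gene was called at an adjusted p under 0.05. Within each tissue Tnfrsf4 followed the gates. It had 3357 ± 203 CPM in tumor OX40plus and 1950.4 ± 152 CPM in tumor OX40minus Tregs (SD, n = 4 each). In spleens it had 704 ± 111 CPM in OX40plus and 253 ± 40.9 CPM in OX40minus Tregs (n = 3 each). Between tissues, tumor OX40minus Tregs had more Tnfrsf4 than spleen OX40plus Tregs (log2 fold change 1.48 ± 0.12 SE, limma adjusted p = 3.59e-08). The OX40 difference of Tnfrsf4 was smaller in tumors (0.78) than in spleens (1.48). This change between tissues was called (-0.69 ± 0.17 SE, limma adjusted p = 0.0168). The 5 T cell markers of the table summed to between 2657 and 4547 CPM per sample and the 5 Treg markers to between 2211 and 9112 CPM. In sorted bulk samples, fewer cells of a type and less RNA per cell cannot be told apart.

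The GBP genes form a pair of clusters. On chromosome 3 (mm10, GENCODE M21 gene models), all on the plus strand, lie Gbp5 (142493978 to 142522344), Gbp3 (142560026 to 142573209), Gbp2b (142594847 to 142619179) and Gbp2 (142620602 to 142638008). On chromosome 5, on the minus strand, lie Gbp9 (105077630 to 105139539) and Gbp4 (105115767 to 105139586), whose models overlap. The IRGM genes are on chromosome 11: Irgm1 on the minus strand (48861968 to 48871683), and Igtp (58199556 to 58207591) and Irgm2 (58199618 to 58222782), which overlap, on the plus strand. All 9 are annotated as protein-coding.

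Family members resemble each other in sequence, and some of their gene models overlap, which bears on how reads are divided among them. The shares below do not separate words shared through overlap from words shared through resemblance. Of the 31-base words in the annotated transcripts of Gbp9, 18.3% also occurred in transcripts of other genes, with 9.11% in Gbp8. For Igtp the share was 15.9%, all with Irgm2, and for Gbp4 it was 14.95%, with 6.91% in Gbp6. Irgm2 shared 10.7%, and Gbp3, Gbp2, Gbp2b, Gbp5 and Irgm1 shared between 2.88% and 5.64%. The values of Gbp9, Gbp4, Igtp and Irgm2 are therefore less certain than those of the others, since the authors' tool, kallisto, divides reads that fit several transcripts. No source used here says whether the counting used strand.

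RefSeq promoter windows (build GRCm38.p6, 250 bases before to 50 after a transcript start) were at hand for 7 of the 9 members, all but Gbp4 and Gbp9. Positions here are counted from RefSeq starts, which can differ from the GENCODE models above. The GENCODE model of Gbp2, for example, starts at 142620602, inside the bases shown for Gbp2 (142620413 to 142620662). They were searched on both strands for an ISRE-type motif, GAAANNGAAA, and a GAS-type motif, TTCNNNGAA, where N is any base. An ISRE-type match was present in all 7 members, against 3.99% of 27025 mouse genes. A GAS-type match was present in 3 of them, Gbp5, Igtp and Irgm2, against 9.55% of genes, so those 3 held both, as 0.54% of genes did. No ISRE-type match overlapped a GAS-type match. The 250 bases before the start are shown for Gbp2b and Gbp2, which were lower in OX40plus Tregs of both tissues, for Gbp3 and Gbp5, which were not called between the gates, and for Igtp, the member with the highest level, read 5′ to 3′ on the strand of the gene, with motif matches in capitals.
Gbp2b, chr3:142594597-142594846, plus strand: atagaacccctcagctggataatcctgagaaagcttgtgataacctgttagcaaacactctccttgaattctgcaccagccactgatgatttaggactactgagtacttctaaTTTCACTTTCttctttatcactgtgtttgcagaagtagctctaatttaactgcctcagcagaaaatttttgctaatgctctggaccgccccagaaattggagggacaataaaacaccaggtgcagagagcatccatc
Gbp2, chr3:142620413-142620662, plus strand: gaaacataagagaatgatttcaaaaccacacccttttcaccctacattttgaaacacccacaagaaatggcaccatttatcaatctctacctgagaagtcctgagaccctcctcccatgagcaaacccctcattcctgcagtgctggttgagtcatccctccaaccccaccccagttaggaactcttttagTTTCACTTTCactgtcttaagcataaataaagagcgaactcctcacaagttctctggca
Gbp3, chr3:142559794-142560043, plus strand: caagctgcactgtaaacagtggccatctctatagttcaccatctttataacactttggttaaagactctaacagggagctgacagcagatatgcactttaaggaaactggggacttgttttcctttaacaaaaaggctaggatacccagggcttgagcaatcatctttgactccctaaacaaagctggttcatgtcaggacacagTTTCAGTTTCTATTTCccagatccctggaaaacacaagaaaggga
Gbp5, chr3:142496684-142496933, plus strand: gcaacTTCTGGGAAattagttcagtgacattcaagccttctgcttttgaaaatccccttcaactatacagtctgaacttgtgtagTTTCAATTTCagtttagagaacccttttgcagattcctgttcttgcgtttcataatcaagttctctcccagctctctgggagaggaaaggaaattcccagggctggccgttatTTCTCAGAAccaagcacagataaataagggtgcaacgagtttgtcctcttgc
Igtp, chr11:58199306-58199555, plus strand: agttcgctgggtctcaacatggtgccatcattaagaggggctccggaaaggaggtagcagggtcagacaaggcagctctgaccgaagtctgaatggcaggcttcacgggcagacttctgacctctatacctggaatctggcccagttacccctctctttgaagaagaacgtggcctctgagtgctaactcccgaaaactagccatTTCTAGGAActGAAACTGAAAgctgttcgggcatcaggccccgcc
In Gbp2b the ISRE-type match lay 137 to 128 bases before the start, and in Gbp2 it lay 59 to 50 bases before it, both times on the opposite strand (TTTCACTTTC in each). Gbp3 had a pair of overlapping matches between 45 and 30 bases before the start, and a second Gbp3 window further downstream had none. Gbp5 had an ISRE-type match at 165 to 156 bases and GAS-type matches at 245 to 237 and at 52 to 44 bases. Igtp had its GAS-type match at 45 to 37 bases and its ISRE-type match at 34 to 25 bases, and the Irgm2 window, 91.1% identical to it over 271 aligned positions, carried the same pair further from its start (75 to 67 and 64 to 55 bases). Irgm1 had overlapping ISRE-type matches between 30 and 15 bases. Among the 7 members with a window, those that were and were not called between the gates thus all held an ISRE-type match. Gbp4 and Gbp9 could not be searched. These are matches of letters in a window and not measured binding.

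**Figure D1:**
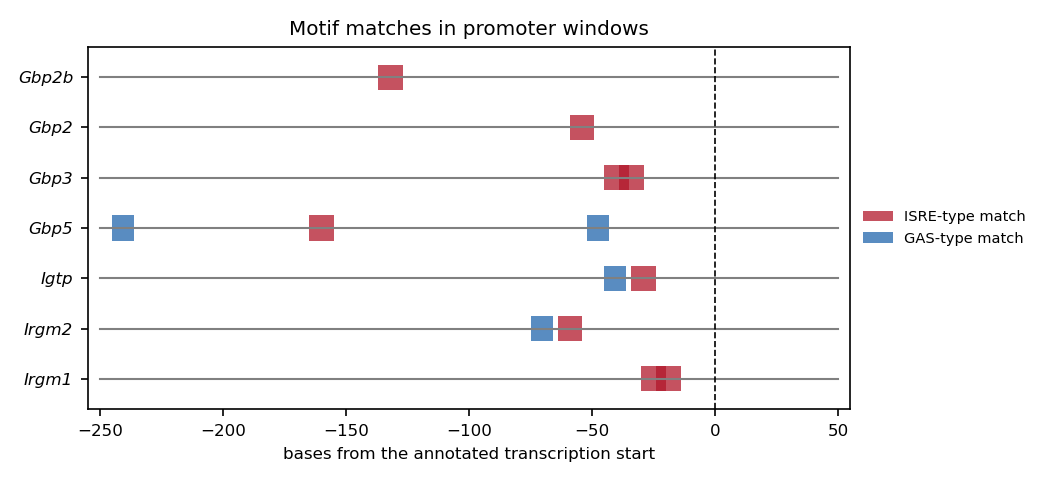
Positions of ISRE-type and GAS-type matches, in bases from the annotated transcription start, in the RefSeq promoter windows of 7 members (first window of Gbp3). Each window has at least 1 ISRE-type match, and Gbp5, Igtp and Irgm2 also have GAS-type matches.

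In tumors, 7 of the 9 members were lower in OX40plus than in OX40minus Tregs and none was higher, where 19.9% of all genes tested were called lower, 18.5% higher and 38.4% in either direction. The median log2 fold change of the 9 was -0.64, beside -0.08 over all genes tested. Gbp2b fell most, followed by Gbp9 and Gbp2, while Gbp3 and Gbp5, neighbours of Gbp2b in the chromosome 3 cluster, were not called. The CPM ranges of the gates did not overlap for 6 of the 7, where 16.2% of all genes were lower and 16.6% higher without overlap, and the exception was Irgm2. Summed over the 9 members, tumor OX40plus samples had 3029.6 ± 140.3 CPM and tumor OX40minus samples 4443 ± 432 CPM (SD, n = 4 each), with ranges of 2924 to 3234 and of 3926 to 4979.9 CPM.

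Gbp2b encodes the protein known as mouse GBP1, which carries a prenylation signal and is recruited to vacuoles of intracellular parasites. Its level was 3.05, 4.88, 4.94 and 2.71 CPM in the tumor OX40plus samples of mice 1 to 4, against 95.6, 47.3, 66.4 and 77.0 CPM in their tumor OX40minus samples. All OX40plus samples were thus far below all OX40minus samples. The log2 fold change was -4.20 ± 0.25 (SE; limma, adjusted p = 1.36e-08), an 18.4-fold lower level in OX40plus Tregs.

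Gbp2, which lies next to Gbp2b and takes part in the release of bacterial DNA and lipopolysaccharide to cytosolic sensors in mouse macrophages, had 201, 158, 158 and 169 CPM in tumor OX40plus Tregs, against 327, 268, 374 and 339 CPM in tumor OX40minus Tregs. The highest OX40plus sample lay below the lowest OX40minus sample. Its log2 fold change was -0.93 ± 0.15 (SE; limma, adjusted p = 0.000174), a 1.9-fold lower level.

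Gbp3 had 526, 502, 486 and 554 CPM in tumor OX40plus Tregs, against 527, 450.4, 509 and 541 CPM in tumor OX40minus Tregs. Gbp5, which in mouse macrophages promotes assembly of the NLRP3 inflammasome, had 80.1, 78.9, 71.6 and 68.6 CPM in OX40plus, against 93.5, 77.9, 64.0 and 82.4 CPM in OX40minus Tregs of tumors. For both genes the gates overlapped. The log2 fold change of Gbp3 was 0.03 ± 0.10 (SE, 95% interval -0.18 to 0.24; limma, adjusted p = 0.847) and that of Gbp5 was -0.08 ± 0.12 (SE, 95% interval -0.33 to 0.17; limma, adjusted p = 0.652). The intervals leave room for small differences in either direction.

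In the chromosome 5 cluster, Gbp9 had 92.2, 127, 92.7 and 93.0 CPM in tumor OX40plus Tregs, against 275, 249, 302 and 248 CPM in tumor OX40minus Tregs (log2 fold change -1.42 ± 0.13 SE; limma, adjusted p = 8.6e-07). Mouse 2 was the highest OX40plus sample and still lay below all OX40minus samples. Gbp4 had 535, 554, 541 and 529 CPM in OX40plus, against 868, 765, 1018 and 836 CPM in OX40minus Tregs (-0.68 ± 0.12 SE; limma, adjusted p = 0.000309). The OX40plus samples of Gbp4 lay close together, and the OX40minus samples spread more widely above them.

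Among the IRGM genes, Igtp had 1175, 1086, 1106 and 1021 CPM in tumor OX40plus Tregs, against 1504, 1408, 1722 and 1509 CPM in tumor OX40minus Tregs (log2 fold change -0.48 ± 0.11 SE; limma, adjusted p = 0.00214). Irgm1, which is also needed for the survival of activated mouse T cells, had 396, 294, 314 and 349 CPM in tumor OX40plus, against 539, 439, 642 and 498 CPM in tumor OX40minus Tregs (-0.64 ± 0.13 SE; limma, adjusted p = 0.00123). Both were separated without overlap. Irgm2 had 225, 198, 183 and 137 CPM in OX40plus, against 253, 222, 282 and 254 CPM in OX40minus Tregs, and here OX40plus mouse 1 lay just above OX40minus mouse 2 (-0.46 ± 0.14 SE; limma, adjusted p = 0.0141).

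**Figure D2:**
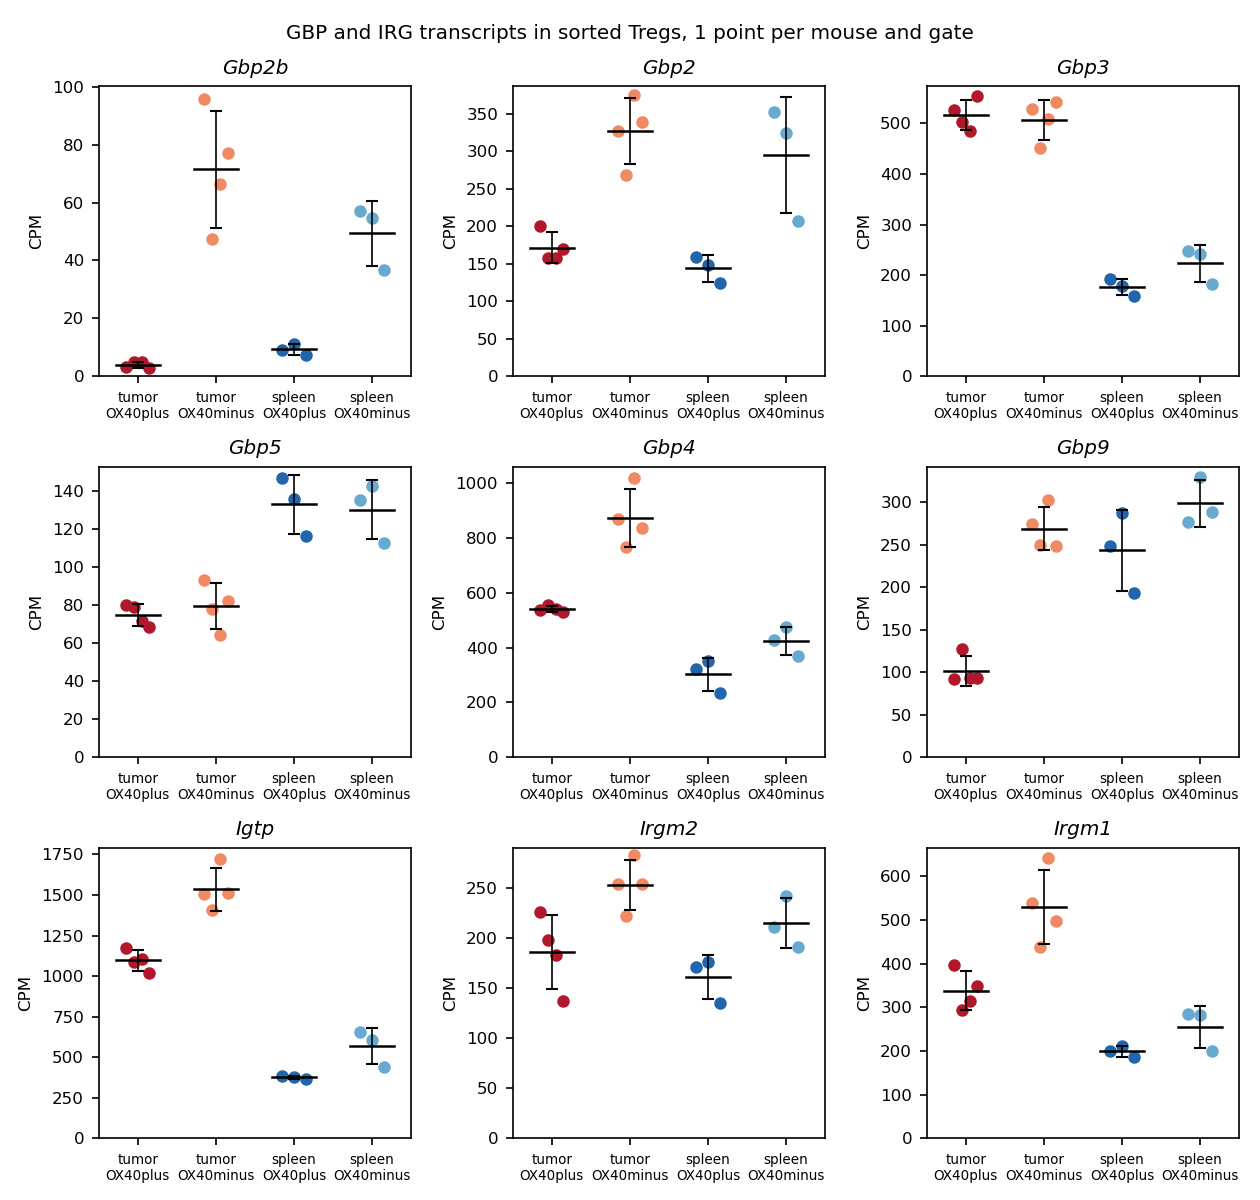
CPM of the 9 members in each sample (1 point per mouse and gate, mean of 2 libraries), with the mean (long bar) and SD (error bars) of the OX40plus and OX40minus gates of tumors and then of spleens (n = 4 per tumor group and 3 per spleen group). Gbp2b was lowest in tumor OX40plus Tregs (2.71 to 4.94 CPM), Igtp and Gbp3 were higher in both tumor gates than in both spleen gates, and Gbp5 was lower in them.

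In spleens, 4 of the 9 members were lower in OX40plus than in OX40minus Tregs, namely Gbp2b, Gbp2, Igtp and Gbp4, and none was higher, where 3.55% of all genes tested were called lower, 4.34% higher and 7.89% in either direction. The median log2 fold change was -0.42, beside 0.01 over all genes. The other 5 members ranged from -0.42 (Irgm2) to 0.03 (Gbp5) and were not called. Groups did not overlap for the 4 called genes and Irgm2, 5 in all, where 14.3% of all genes were lower and 17.4% higher without overlap. The summed level was 1744 ± 195 CPM in spleen OX40plus and 2457 ± 372 CPM in spleen OX40minus samples (SD, n = 3 each), with ranges of 1521 to 1879 and of 2028 to 2694 CPM.

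Gbp2b had 9.21, 11.3 and 7.31 CPM in spleen OX40plus Tregs of mice 1 to 3, against 56.9, 54.6 and 36.6 CPM in spleen OX40minus Tregs (log2 fold change -2.41 ± 0.29 SE; limma, adjusted p = 7.29e-05), a 5.3-fold lower level. Gbp2 had 159, 148 and 124 CPM in spleen OX40plus, against 352, 324 and 206 CPM in spleen OX40minus Tregs (-1.0 ± 0.17 SE; limma, adjusted p = 0.00161). In both genes OX40minus mouse 3 was the lowest of its group and OX40plus mouse 3 the lowest of its own.

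Igtp had 384, 379.7 and 366 CPM in spleen OX40plus Tregs, against 655, 606 and 441 CPM in spleen OX40minus Tregs (log2 fold change -0.57 ± 0.12 SE; limma, adjusted p = 0.00772). Gbp4 had 322, 350.0 and 234 CPM in spleen OX40plus, against 429, 473 and 369.7 CPM in spleen OX40minus Tregs (-0.50 ± 0.14 SE; limma, adjusted p = 0.0329). The Gbp4 ranges were close, and its limma call was lost with library size alone as scaling (adjusted p = 0.0516) and with only the spleen groups fitted (adjusted p = 0.0805). It was also lost in limma without spleen OX40plus mouse 1 (adjusted p = 0.0544) or mouse 3 (0.146), and without spleen OX40minus mouse 1 (0.0883) or mouse 2 (0.178).

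Of the members not called in spleens, Irgm2 had 171, 176 and 135 CPM in OX40plus, against 211, 241 and 191 CPM in OX40minus Tregs (log2 fold change -0.42 ± 0.16 SE; limma, adjusted p = 0.139). Gbp3 had 191, 178 and 159 CPM in OX40plus, against 247, 241 and 182 CPM in OX40minus Tregs (-0.33 ± 0.12 SE; adjusted p = 0.106 from limma). In Gbp3 OX40minus mouse 3 reached into the OX40plus range, and without it Gbp3 was called in limma (-0.47, adjusted p = 0.0145). Irgm1 had 199.9, 212 and 186 CPM in OX40plus, against 285, 282 and 199.7 CPM in OX40minus Tregs (-0.34 ± 0.15 SE; limma, adjusted p = 0.252). Gbp9 had 248, 287 and 194 CPM in OX40plus, against 277, 329 and 289 CPM in OX40minus Tregs (-0.31 ± 0.15 SE; limma, adjusted p = 0.297). The gates overlapped in both, and in Gbp5 as well. Gbp5 had 147, 136 and 116 CPM in spleen OX40plus, against 135, 143 and 113 CPM in spleen OX40minus Tregs (0.03 ± 0.14 SE, 95% interval -0.26 to 0.32; limma, adjusted p = 0.984).

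**Figure D3:**
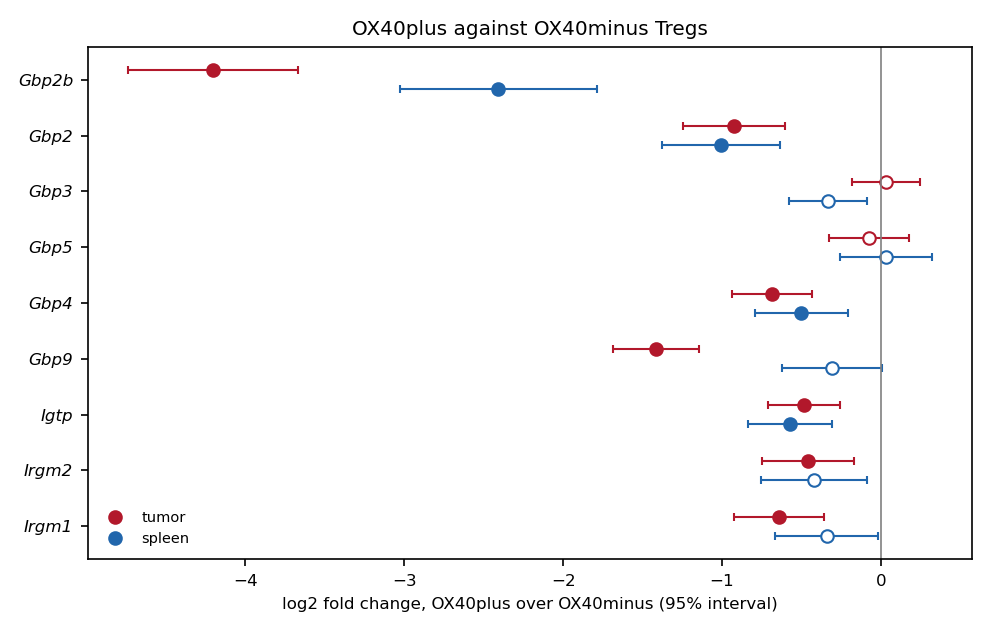
Log2 fold change of each member, OX40plus over OX40minus, in tumor and in spleen, with its 95% interval from the limma fit. Filled points were called at an adjusted p under 0.05, 7 in tumors and 4 in spleens, and Gbp2b lay furthest from 0 in both (-4.20 in tumors and -2.41 in spleens).

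Whether the OX40 difference itself differed between tissues was tested as an interaction, the tumor log2 fold change minus the spleen log2 fold change. Gbp2b (-1.80 ± 0.39 SE; limma, adjusted p = 0.0079) and Gbp9 (-1.11 ± 0.20 SE; limma, adjusted p = 0.00222) were called, both with the larger fall in tumors, and no member was called in the other direction. That is 2 of 9 lower, where 6.33% of all genes tested were called lower, 4.49% higher and 10.8% in either direction. Without spleen OX40minus mouse 3, Gbp3 was also called, in the positive direction (0.50; limma, adjusted p = 0.0295). The other 7 ranged from -0.30 (Irgm1, 95% interval -0.73 to 0.13) to 0.36 (Gbp3, 95% interval 0.04 to 0.69; limma, adjusted p = 0.15). For Gbp2 (0.08, interval -0.41 to 0.57) and Igtp (0.09, interval -0.26 to 0.44), which were lower in OX40plus Tregs of both tissues, no difference between tissues was detected.

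Between tissues the members went in different directions, unlike the comparison of the gates. In OX40plus Tregs, Gbp3, Igtp, Gbp4 and Irgm1 were higher and Gbp2b, Gbp9 and Gbp5 lower in tumors than in spleens. That is 7 of 9 called, close to the 64.5% of all genes that were called in this comparison (30.2% higher and 34.3% lower). In OX40minus Tregs, Gbp3, Igtp, Gbp4 and Irgm1 were again higher and Gbp5 again lower, 5 of 9 called, where 59% of all genes were called (29.7% higher and 29.3% lower). Gbp2 and Irgm2 were called in neither gate.

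Gbp3, which was not called between the gates of either tissue, stood at 517 ± 29.7 CPM in tumor OX40plus against 176 ± 16.4 CPM in spleen OX40plus Tregs, and at 507 ± 40.0 CPM in tumor OX40minus against 223 ± 36.0 CPM in spleen OX40minus Tregs. Its log2 fold change of tumor over spleen was 1.56 ± 0.11 (SE; limma, adjusted p = 4e-09) in OX40plus and 1.19 ± 0.11 (SE; limma, adjusted p = 1.23e-07) in OX40minus Tregs. Igtp averaged 1097 ± 63.6 CPM in tumor OX40plus against 377 ± 9.54 CPM in spleen OX40plus Tregs (1.54 ± 0.12 SE; limma, adjusted p = 9.31e-09). In OX40minus Tregs it averaged 1536 ± 133 CPM in tumors against 567 ± 112 CPM in spleens (1.45 ± 0.12 SE; limma, adjusted p = 2.68e-08). For both genes the tumor samples of either gate all lay above the spleen samples of either gate. Over all genes, 29.6% were higher and 33.5% lower in tumor without overlap in OX40plus Tregs, and 31.3% higher and 32.1% lower in OX40minus Tregs.

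Gbp4 rose in tumors by 0.86 ± 0.13 in OX40plus and 1.04 ± 0.13 in OX40minus Tregs, and Irgm1 by 0.76 ± 0.14 and 1.06 ± 0.14, as log2 fold changes with SE (limma, adjusted p = 1e-05 to 0.00022 over these comparisons of Irgm1, and 3.79e-06 and 2.24e-05 for Gbp4). Gbp5 went the other way, at 74.8 ± 5.63 CPM in tumor OX40plus against 133 ± 15.4 CPM in spleen OX40plus Tregs, and at 79.4 ± 12.2 CPM in tumor OX40minus against 130.2 ± 15.7 CPM in spleen OX40minus Tregs. Its log2 fold changes were -0.83 ± 0.13 and -0.72 ± 0.13 (SE; limma, adjusted p = 3.01e-05 and 0.000149). Gbp3 and Gbp5, the members that were not called between the gates of either tissue, were thus called in opposite directions between the tissues in both gates.

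For Gbp2b and Gbp9 the tissue difference was called in OX40plus Tregs and not in OX40minus Tregs, and the interaction above is also the test of that difference between gates. Gbp2b averaged 3.89 ± 1.18 CPM in tumor OX40plus against 9.28 ± 2.01 CPM in spleen OX40plus Tregs (log2 fold change -1.28 ± 0.27 SE; limma, adjusted p = 0.00064). In OX40minus Tregs it averaged 71.6 ± 20.2 CPM in tumors against 49.4 ± 11.1 CPM in spleens (0.52 ± 0.27 SE; limma, adjusted p = 0.114), and this difference was called with limma-voom (adjusted p = 0.0396) and without tumor OX40minus mouse 2 (adjusted p = 0.0378). Gbp9 averaged 101 ± 17.4 CPM in tumor OX40plus against 243 ± 47.1 CPM in spleen OX40plus Tregs (-1.26 ± 0.14 SE; limma, adjusted p = 7.65e-07), and 269 ± 25.5 CPM in tumor OX40minus against 298 ± 27.2 CPM in spleen OX40minus Tregs (-0.15 ± 0.14 SE; limma, adjusted p = 0.361).

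**Figure D4:**
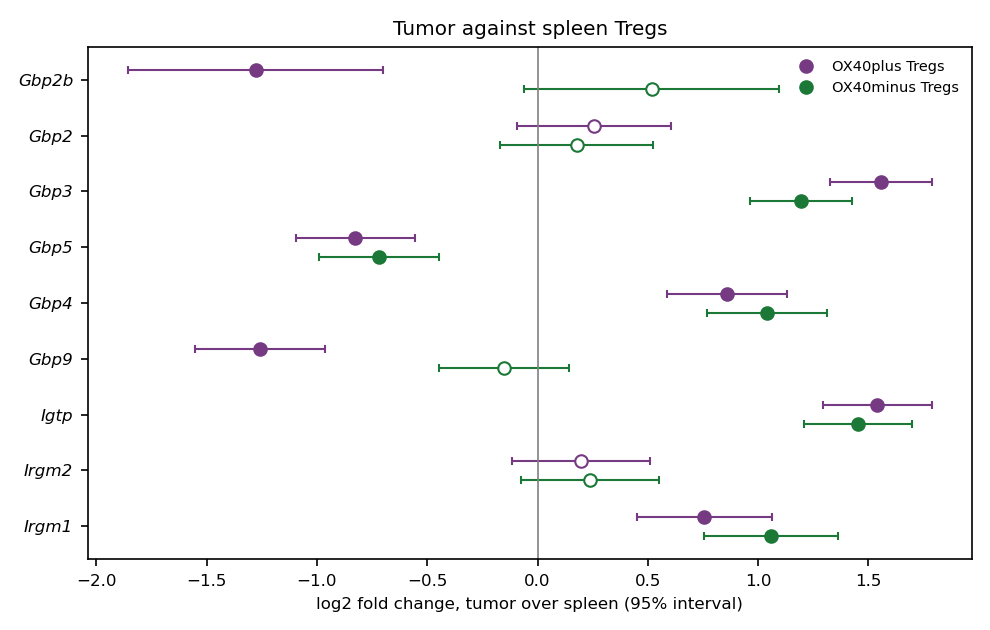
Log2 fold change of each member, tumor over spleen, in OX40plus and in OX40minus Tregs, with its 95% interval from the limma fit. Filled points were called at an adjusted p under 0.05, and Gbp3 and Igtp lay furthest to the right in both gates (1.19 to 1.56).

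Ordered by mean CPM over the 4 groups, with neighbours compared by limma, the members fell into several patterns. Gbp4 and Igtp had the same order, tumor OX40minus, tumor OX40plus, spleen OX40minus, spleen OX40plus, and all neighbours differed. For the step of tumor OX40plus over spleen OX40minus the log2 fold change of Igtp was 0.97 ± 0.12 (SE; limma, adjusted p = 1.7e-06) and that of Gbp4 0.36 ± 0.13 (SE; limma, adjusted p = 0.0226), and the Gbp4 call was lost with library size alone as scaling (adjusted p = 0.0561) and without spleen OX40minus mouse 3 (adjusted p = 0.121). Irgm1 had the same order, but its spleen gates were not called different, and its step of tumor OX40plus over spleen OX40minus (0.42 ± 0.14 SE; limma, adjusted p = 0.0175) was lost without tumor OX40plus mouse 1 (adjusted p = 0.0545) or without spleen OX40minus mouse 3 (adjusted p = 0.137). In this comparison 4 of 9 members were higher in tumor OX40plus Tregs and 4 lower, where 67% of all genes were called, 31.4% higher and 35.6% lower. These 8 members did not overlap between the groups, as was so for 31.4% of all genes that were higher and 35.8% that were lower.

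Gbp3 was highest in both tumor gates and Gbp5 in both spleen gates, with a call between the tissues and none between the gates. For Gbp2 and Gbp2b the gates came first. Gbp2 was highest in tumor OX40minus and spleen OX40minus Tregs and lower in tumor OX40plus and spleen OX40plus Tregs, with no call between the tissues within either gate. Its tumor OX40plus level, 172 ± 20.3 CPM, was below its spleen OX40minus level, 294 ± 77.2 CPM (log2 fold change -0.75 ± 0.16 SE; limma, adjusted p = 0.000741). Gbp2b had both OX40minus groups on top, without a call between them, then spleen OX40plus and then tumor OX40plus Tregs, and these last steps were called. Gbp9 came in the order spleen OX40minus, tumor OX40minus, spleen OX40plus and tumor OX40plus, and only the last step was called.

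Irgm2 had the flattest profile, with means of 186 ± 36.9, 253 ± 24.8, 161 ± 22.2 and 215 ± 25.2 CPM in the OX40plus and OX40minus gates of tumors and then of spleens, and no neighbours in its order were called different. Its tumor OX40minus level was above its spleen OX40plus level (log2 fold change 0.66 ± 0.15 SE; limma, adjusted p = 0.00121), a comparison in which 7 members were called higher and 1, Gbp5, lower, where 57.7% of all genes were called, 28.6% higher and 29.1% lower. All 8 were without overlap, where 29.4% of all genes were higher and 30.9% lower without overlap. Igtp, with which Irgm2 shares transcript sequence, had a log2 fold change of 2.02 ± 0.12 there (SE; limma, adjusted p = 5.97e-10). Per kilobase of the longest coding transcript, Igtp was the most abundant member in all 4 groups, at 542, 759, 186 and 281 CPM per kilobase in the OX40plus and OX40minus gates of tumors and then of spleens. Gbp2b was the least abundant in each of them, at 1.38, 25.3, 3.29 and 17.5 CPM per kilobase.

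Further listed GTPase genes, most of them of the GBP and IRG families, were also lower in tumor OX40plus Tregs in most tested cases. Of 22 such genes, 14 were tested, and in tumors 10 of them were lower and none was higher in OX40plus Tregs (median log2 fold change -0.93). The share of all genes called lower was 19.9%. Gbp8 averaged 48.0 ± 4.48 CPM in tumor OX40plus against 147 ± 15.5 CPM in tumor OX40minus Tregs (-1.61 ± 0.09 SE; limma, adjusted p = 1.1e-08). Gbp6 averaged 453 ± 48.9 CPM in tumor OX40plus against 969 ± 106 CPM in tumor OX40minus Tregs (-1.09 ± 0.12 SE; limma, adjusted p = 6.16e-06). Tgtp1, an effector IRG, averaged 217 ± 16.8 CPM in tumor OX40plus against 455 ± 49.5 CPM in tumor OX40minus Tregs (-1.06 ± 0.11 SE; limma, adjusted p = 3.98e-06), and the predicted IRG gene Gm4951 had a log2 fold change of -1.15. Gbp8 and Gbp6 are the genes with which Gbp9 and Gbp4 share most sequence, so their values are not independent of those of Gbp9 and Gbp4.

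In spleens 3 of the 14 were lower, the effector IRG genes Tgtp1 (-1.07), Tgtp2 (-0.75) and Ifi47 (-0.53), and none was higher (median -0.49). The share of all genes called lower there was 3.55%. Tgtp1 averaged 105 ± 7.70 CPM in spleen OX40plus and 224 ± 43.7 CPM in spleen OX40minus Tregs (SD, n = 3 each). Gbp8 (-0.25) and Gbp6 (-0.27) were not called in spleens, and both were called in the interaction (-1.36 and -0.83; limma, adjusted p = 3.98e-05 and 0.0114). Tgtp1 and Tgtp2 are near-identical copies, and the division of reads between them is uncertain.

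Genes of the interferon gamma pathway itself were also lower in tumor OX40plus Tregs, 8 of 11 tested, with 2 higher (median log2 fold change -0.50). Of all genes tested, 19.9% were called lower and 18.5% higher there. Socs3, a feedback inhibitor of cytokine signaling, averaged 168 ± 38.1 CPM in tumor OX40plus against 480.3 ± 84.8 CPM in tumor OX40minus Tregs (-1.53 ± 0.14 SE; limma, adjusted p = 9.42e-07). The receptor chain gene Ifngr1 averaged 1348 ± 94.3 CPM in tumor OX40plus against 2369.8 ± 128 CPM in tumor OX40minus Tregs (-0.81 ± 0.09 SE; limma, adjusted p = 3.03e-06), and the feedback inhibitor Socs1 had a log2 fold change of -0.64. The 2 that were higher were Irf8, an IRF family transcription factor (0.55), and Ptpn2, a phosphatase that dampens cytokine signaling (0.47), named after their values were seen. Ifng, which encodes interferon gamma, had 16.8 ± 3.86 CPM in tumor OX40plus and 24.5 ± 6.42 CPM in tumor OX40minus Tregs and was not called (-0.54, adjusted p = 0.11 from limma).

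In spleens 2 of these 11 genes were called, in opposite directions (median -0.12), where 7.89% of all genes tested were called. Socs3 was lower (-0.97 ± 0.16 SE; limma, adjusted p = 0.00121). Ifng was higher, at 5.86 ± 1.49 CPM in spleen OX40plus against 2.76 ± 0.759 CPM in spleen OX40minus Tregs (1.09 ± 0.30 SE; limma, adjusted p = 0.0321), while Gbp2b, Gbp2, Igtp and Gbp4 were lower in the same samples. Ifngr1 (-0.12) was not called in spleens. The interaction was called for Ifng (-1.63), Ifngr1 (-0.69), Jak2 (-0.64) and Irf8 (0.61). Between tissues, Ifngr1 was higher in tumors by a log2 fold change of 1.97 in OX40plus and 2.66 in OX40minus Tregs, Ifng by 1.52 and 3.15, and Irf8 by 2.0 and 1.38.

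Other targets of interferon gamma, 19 tested, were lower in 14 cases and higher in none in tumor OX40plus Tregs (median -1.0). Cxcl10, a chemokine gene, averaged 29.9 ± 7.60 CPM in tumor OX40plus against 116 ± 25.2 CPM in tumor OX40minus Tregs (-1.97 ± 0.20 SE; limma, adjusted p = 2.22e-06). Cd274, which encodes PD-L1, had a log2 fold change of -1.32, Ciita, the activator of MHC class II genes, of -1.42, and Fcgr1, an Fc receptor gene of myeloid cells, of -1.78. In spleens 4 of the 19 were lower (median -0.15), and those named by rule were Fcgr1 (-2.63) and Wars, a tRNA synthetase gene (-0.43). Type I interferon response genes, 25 tested, were lower in 23 cases in tumors (median -1.13). Those named were Oas2 at -2.83, Ifit3 at -2.37, Rsad2 at -1.80 and Oasl2 at -1.66. In spleens 1 of the 25 was lower, Irf7 (-0.45), and their median was -0.18. Of all genes tested, 19.9% were called lower in tumors and 3.55% in spleens.

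Between tissues, in OX40plus Tregs, 22 of the 25 type I interferon response genes were lower in tumors than in spleens and none was higher (median -1.10), while of the members Gbp2b, Gbp9 and Gbp5 were lower and Gbp3, Igtp, Gbp4 and Irgm1 higher. In OX40minus Tregs 13 were lower and 4 higher (median -0.25). The interferon gamma pathway genes were higher in tumors in 6 and lower in 2 of 11 cases in OX40plus Tregs (median 0.28). In OX40minus Tregs they were higher in 9 and lower in none (median 0.57). Of all genes tested, 30.2% were called higher, 34.3% lower and 64.5% in either direction in OX40plus Tregs. In OX40minus Tregs these shares were 29.7%, 29.3% and 59%. No test compared these lists with each other.

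Among 15 tested partners of the GTPases, genes of the ATG8 conjugation machinery, of inflammasomes and of prenylation, 1 was higher and 3 were lower in tumor OX40plus Tregs (median -0.15). These shares were below the 18.5% of all genes called higher and close to the 19.9% called lower. Fntb, which encodes the beta subunit of farnesyltransferase, averaged 15.6 ± 2.76 CPM in tumor OX40plus against 8.03 ± 2.97 CPM in tumor OX40minus Tregs (1.01 ± 0.23 SE; limma, adjusted p = 0.00263). Casp4, which encodes caspase-11, the sensor of cytosolic lipopolysaccharide, was lower in tumors, at 12.2 ± 2.02 CPM in OX40plus against 23.3 ± 2.95 CPM in OX40minus Tregs (-0.94 ± 0.15 SE; limma, adjusted p = 0.000145), and the ATG8 family genes Map1lc3a and Map1lc3b were at -0.66 and -0.30. In spleens Casp4 was higher, at 28.8 ± 3.05 CPM in OX40plus against 18.5 ± 1.08 CPM in OX40minus Tregs (0.64, adjusted p = 0.032 from limma), the only partner called there, and the interaction of Casp4 was -1.58 (limma, adjusted p = 0.000581).

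**Figure D5:**
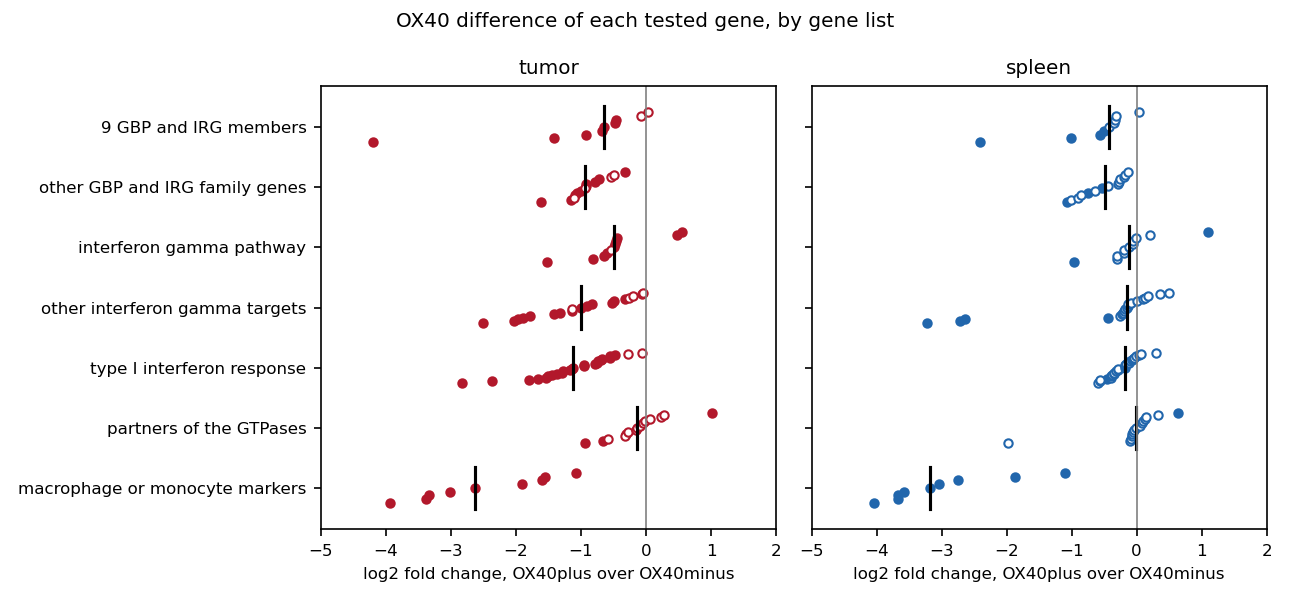
Log2 fold change of each tested gene, OX40plus over OX40minus, in tumor (left) and spleen (right), by gene list, with the list's median as a bar and called genes filled. The median of the 9 members was -0.64 in tumors and -0.42 in spleens, and that of the macrophage or monocyte markers was -2.64 and -3.18.

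Among the marker lists, only the macrophage or monocyte markers were called lower in OX40plus Tregs throughout, in both tissues. In tumors 2 of 5 neutrophil, 1 of 2 CD8 T cell and 1 of 5 fibroblast or endothelial markers were lower. Of the neutrophil markers, 2 averaged under the level of 3 counts in tumor OX40plus Tregs. In tumors 1 of 5 T cell markers was lower, Cd4 (-0.68), and 1 of 5 Treg markers was higher, Il2ra (0.62). In spleens 1 of 5 fibroblast or endothelial markers was lower and no neutrophil or CD8 T cell marker. There 2 of 5 Treg markers were higher and no T cell marker was called. No B cell or melanocyte marker was called between the gates of either tissue. Of all genes tested, 19.9% were called lower in tumors and 3.55% in spleens, and 18.5% and 4.34% were called higher. Of 12 macrophage or monocyte markers, 10 are in the table and 9 were tested, and all 9 were lower in OX40plus Tregs of tumors (median log2 fold change -2.64) and of spleens (-3.18). Their summed level was 73.1 to 85.3 CPM per sample in tumor OX40plus against 265 to 401 CPM in tumor OX40minus Tregs, and 105 to 216 CPM in spleen OX40plus against 795 to 1009 CPM in spleen OX40minus Tregs. Mertk and Adgre1, macrophage genes, averaged under the level of 3 counts in tumor OX40plus Tregs, and Adgre1 averaged at most 1.24 CPM in any group. Csf1r, the macrophage growth factor receptor gene, averaged 12.1 ± 4.08, 45.3 ± 15.2, 22.2 ± 11.6 and 185 ± 15.1 CPM in the OX40plus and OX40minus gates of tumors and then of spleens. Macrophages also express GBPs and IRGs, and their part in the gate differences of the members was not tested.

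For the comparison of tissues, marker lists and members are given side by side. The macrophage or monocyte markers had their highest sums in spleen OX40minus samples. Of them 6 of 9 were called lower in tumor than in spleen OX40minus samples (median log2 fold change -1.98, tumor over spleen), beside 29.3% of all genes. Also lower in tumor OX40minus samples were 3 of 3 tested B cell, 4 of 5 neutrophil and 3 of 5 NK cell markers, and the member Gbp5 (-0.72). Gbp5 was not called between the gates (-0.08 in tumors and 0.03 in spleens). Gbp3, Igtp, Gbp4 and Irgm1 were higher in tumor OX40minus samples, as were 4 of 6 dendritic cell markers (median log2 fold change 2.61) and 29.7% of all genes. Between the tumor gates, Gbp3 was not called (0.03), and Igtp (-0.48), Gbp4 (-0.68) and Irgm1 (-0.64) were lower in OX40plus Tregs. Dendritic cell markers were lower in 4 of 6 cases in tumor OX40plus Tregs (summed 37.9 to 67.3 CPM against 134 to 193 CPM in tumor OX40minus Tregs) and in none in spleens, where the sums were 14.6 to 19.2 CPM in OX40plus against 43.1 to 49.1 CPM in OX40minus Tregs. NK cell markers were lower in 4 of 5 cases in tumors, at sums of 0.544 to 1.17 CPM in OX40plus against 3.12 to 4.28 CPM in OX40minus Tregs, and in none in spleens. B cell markers summed to at most 1.35 CPM in tumor samples and to 264 to 391 CPM in spleen samples, and melanocyte markers to 68.0 to 177 CPM in tumor and 11.2 to 19.6 CPM in spleen samples. Their part in the tissue differences of the members was not tested.

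Among the 5 genes outside the members whose log2 CPM followed the members' mean z-score most closely over the 14 samples were Zbp1, a sensor of Z-form nucleic acids (Pearson r = 0.959), Socs2 (0.944), Itgb3 (0.942) and Saraf (0.937), of 8987 genes ranked. These samples share groups and libraries, so the values describe a common profile over 4 groups and are not a test. Zbp1 averaged 345, 592, 316 and 389 CPM, in the OX40plus and OX40minus gates of tumors and then of spleens.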

How the data were processed

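Tregs from 4 tumors and 3 spleens per gate were profiled by RNA-seq of total RNA. Per the submitters' processing notes, bcl2fastq 2.19, kallisto, limma and mm10 were used; order and settings are not stated. The deposited table, made by the authors, holds log2 CPM per gene and library, although it is named for counts: in each library the lowest value is shared by 451 to 1322 genes, and taking it as 0.5 counts gives whole estimated counts for 43.2% to 49.0% of values, against 0.926% to 1.34% with a library size 10% off. CPM and estimated counts were computed back from it; these are estimates, since kallisto divides shared reads. No column of per-sample values was left unused (0 columns).

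The mean log2 CPM of the 2 libraries per mouse and gate was fitted in limma 3.58.1 (R 4.3.3), with a mean-variance trend, 1 term per group and all 14 samples, on the 12548 of 13103 genes that reached 0.382 CPM (10 counts at the median library size) in 3 or more samples and 15 estimated counts in all. Adjusted p-values are Benjamini-Hochberg over these genes. The fit was also run on simulated counts with changes in tumor OX40plus samples alone. No result here rests on that run. Named were all members, and per further list and comparison up to 4 called genes of largest absolute fold change with a mean of at least 5 CPM in the higher group; exceptions are Ifng in tumors, genes given beside a called value in the other tissue, Zbp1, Csf1r, Mertk and Adgre1, chosen after their values were seen. A gene that this rule and the ranking by likeness name is not reported here. Members and lists were chosen with earlier results of these data known. Both gates of a tissue carry the same mouse numbers in the titles, which is taken as the same animal. Deviations of same-numbered samples correlated at -0.106 to 0.0596 in tumors and -0.154 to 0.122 in spleens. Those of differently numbered samples correlated at -0.0758 to 0.105 in tumors and -0.233 to 0.230 in spleens, so these values do not show the pairing. Whether tumor and spleen numbers are the same animals is not stated. Alternatives were 2 other scalings, a pseudocount of 2, no filter, either library alone, limma-voom, only the groups compared, a replicate block and leaving out each sample. Promoter windows are from RefSeq (GRCm38.p6), gene models from GENCODE M21, searched with Python 3.11.15 and aligned with Biopython 1.88; plots used matplotlib 3.10.9. Counting error sets the floor of 3 counts.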

Additional observations from a re-analysis of the deposited data

Results flagged for a closer look

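Gbp9 in tumor OX40plus mouse 2, at 127 CPM, lay far from the other 3 mice of its group (92.2 to 93.0 CPM). Of 18 member and group combinations of 4 mice tested, this was the 1 whose gap passed Dixon's limit of 0.829, and chance alone flags about 1 in 20. The OX40 difference of Gbp2b was larger in tumors than in spleens by a log2 value of -1.80 (limma interaction, adjusted p = 0.0079), and that of Gbp9 by -1.11 (adjusted p = 0.00222).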

How the results depend on the processing

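The 7 members called lower in tumors stayed 7 under all settings tried and without any sample. With the mouse number as a replicate block, 7 members were lower in tumors, 4 in spleens and 2 in the interaction, and no member call changed. The members called lower in spleens numbered 3 to 4 over the other settings and 3 to 5 without single samples. Without single samples, members higher in tumor OX40plus than in spleen OX40minus Tregs numbered 2 to 4, and members with a positive interaction 0 to 1, the 2 and the 1 both without spleen OX40minus mouse 3. Signs changed only for values near 0 that were not called. Gbp5 in spleens was -0.00011 with the second libraries alone, and the Irgm2 interaction was 0.0011 with relative log expression scaling. Without single samples, Gbp3 in tumors ranged from -0.0256 to 0.063, Gbp5 from -0.18 to 0.0064 in tumors and -0.0706 to 0.12 in spleens, and Gbp2 of OX40minus Tregs, tumor over spleen, from -0.0588 to 0.33. The interaction ranged from -0.0695 to 0.31 for Gbp2, -0.0257 to 0.26 for Igtp and -0.16 to 0.10 for Irgm2. Irgm2 was called in spleens (adjusted p = 0.0437) and in OX40plus Tregs between tissues (0.34, adjusted p = 0.0265) by limma without tumor OX40plus mouse 4. The causes were not tested. Library size alone shifted the median of all genes by -0.10 for OX40plus Tregs, tumor over spleen. Over all genes, the 990 calls between spleen gates became 1849 with only those groups fitted, 641 without spleen OX40plus mouse 1 and 646 without spleen OX40minus mouse 2; the 1357 interaction calls became 762 and 822 in these last cases, and the 563 positive ones became 355 with the block and 332 without spleen OX40minus mouse 1. The 544 genes higher in spleen OX40plus Tregs became 345 without spleen OX40minus mouse 3. With 3 spleens per gate, a missed call does not show equality.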
